A study of Sus scrofa with 2 samples.

Results

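Fibroblasts of pig dorsal skin that carried few transcripts of the genes marking the fibroblast subsets were examined. A barcode was taken as a fibroblast when COL1A1, COL1A2 and COL3A1 together made up at least 2% of its UMIs and KRT5 less than 0.3%. It was kept when it held fewer than 3 UMIs of MYOC, FGF10 and TMEFF2 together, fewer than 3 of NT5E, SPON1 and CPZ together, and fewer than 2 of CTHRC1. A UMI (unique molecular identifier) stands for 1 captured transcript. This left 314 marker-low fibroblasts among 2255 fibroblasts, 6998 cells within the study's quality limits and 9239 barcodes. Of these, 103 cells came from the fresh library and 211 from the cryopreserved library.

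The skin was taken from healthy male farm pigs and dissociated with an enzyme kit, and the libraries were made with the 10x Genomics Chromium 3′ kit. The fresh group was labelled as untreated. The cryopreserved group was frozen in 90% FBS (serum) with 10% DMSO (a cryoprotectant), stored in liquid nitrogen and thawed. Dead cells were removed by sorting or magnetic beads. There was 1 library per condition, and the labels and methods do not say whether both came from the same animal, so the animal and the freezing cannot be told apart. The protocol text attached to both samples describes freezing, while the title and treatment labels mark one sample as fresh. The libraries held 53271738 and 42217632 UMIs in all, and the marker-low fibroblasts 848695 and 1484195 of them. The intervals below are 95% intervals that cover counting error only, and no test between conditions was possible. The libraries shared 6 barcode sequences, and 1 marker-low cell had such a barcode.

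Fibroblasts build the dermis by secreting fibrillar collagens, proteoglycans and elastic fibre proteins, and they also produce chemokines and growth factors. Skin fibroblasts fall into states that differ by depth in the dermis and by position around vessels and hair follicles. A population defined by low marker counts can hold shallow profiles as well as cells of another state, so depth is given first.

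The share of fibroblasts that were marker-low was 11.3% in the fresh library (exact binomial interval 9.30 to 13.5%) and 15.7% in the cryopreserved library (13.8 to 17.8%). The difference was 4.44 percentage points (Newcombe interval 1.55 to 7.23). Without the limit on mitochondrial UMIs it was 1.92 points (-1.16 to 4.93), an interval that includes 0. These cells were shallow. Their median was 7773 UMIs in the fresh library (6454 to 9184) against 15164 in the other fibroblasts, and 6110 in the cryopreserved library (5552 to 6754) against 11395. The ratio of these medians was 0.513 (fresh) and 0.536 (cryopreserved). Between the libraries the median of the marker-low cells differed by a ratio of 0.786, with an interval of 0.605 to 1.05 that includes equality.

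The share was lower in each deeper range of UMIs, in both libraries. Among fibroblasts under 3000 UMIs, 13 of 21 fresh and 34 of 52 cryopreserved cells were marker-low. From 15000 UMIs, 7 of 425 fresh (1.65%) and 10 of 294 cryopreserved cells (3.40%) were. Each fibroblast was then reduced at random to 3000 UMIs, without the 21 fresh and 52 cryopreserved cells below that depth. At that depth 43.6% of fresh and 42.1% of cryopreserved fibroblasts met the limits, and the difference was -1.52 points (-5.74 to 2.69). With limits set as shares of a cell's UMIs (0.03% for each set of 3 genes and 0.02% for CTHRC1) the shares were 13.5% and 14.3%. At equal depth, the interval of the difference included 0. No UMI of any of the 7 subset genes was found in 24 fresh and 51 cryopreserved cells.

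**Figure D1:**
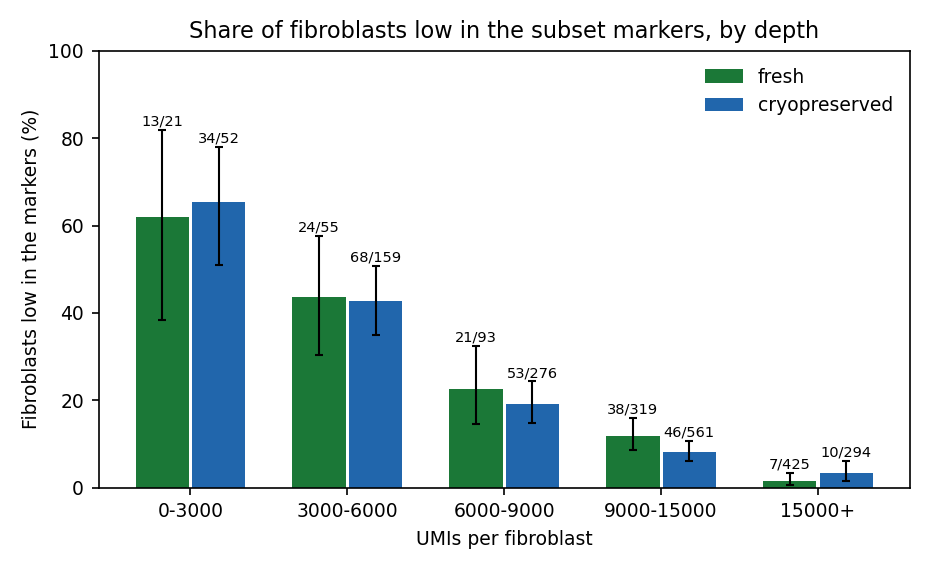
Percent of fibroblasts that were low in the subset markers (y axis) by UMIs per fibroblast (x axis) in the fresh and cryopreserved libraries, with exact 95% binomial intervals and the cell counts above the bars. The share runs from 61.9% (fresh) and 65.4% (cryopreserved) under 3000 UMIs to 1.65% and 3.40% from 15000 UMIs.

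Cells lay on both sides of the limits. For NT5E, SPON1 and CPZ, 38 fresh and 67 cryopreserved cells lay just inside with 2 UMIs, and 31 and 43 cells lay just outside with 3. For MYOC, FGF10 and TMEFF2 the corresponding numbers were 10 and 26 cells inside and 5 and 18 outside. For CTHRC1, 9 and 11 cells lay inside with 1 UMI, and 2 and 4 outside with 2. The KRT5 limit kept out 0 cells that met the other limits, in either library. For the collagen limit, 22 and 29 marker-low cells had 2 to 2.5% collagen UMIs, and 19 and 30 cells that met the other limits had 1.5 to 2%. Cells with a collagen share of 2 to 3% made up 36.9% of the fresh and 23.7% of the cryopreserved marker-low cells, against 8.52% and 9.02% of the other fibroblasts.

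The label was checked on fibroblast genes that the rule did not use. Decorin (DCN), a small proteoglycan bound to collagen fibrils, was detected in 100 of 103 fresh and 198 of 211 cryopreserved cells. Among filtered cells outside the fibroblasts it was detected in 35.5% and 29.2%, at median depths of 9105.5 and 6758 UMIs. Collagen VI (COL6A1) was detected in 101 and 210 cells. The receptor PDGFRA was detected in 76 of 103 and 147 of 211 cells, against 15.3% and 7.29% of the cells outside the fibroblasts, and PDGFRB in 75 and 160 cells. Each of these genes was detected in a larger share of marker-low cells than of the cells outside the fibroblasts. Against the other fibroblasts, 14 of 15 tested fibroblast identity genes were lower in both libraries, as were 4082 of all 8518 tested genes. Their median log2 ratios were -0.36 (fresh) and -0.31 (cryopreserved), and -0.17 and -0.13 over all genes. Of the 15, DCN alone was at least 2-fold lower, and 0 were with scaling to total UMIs.

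Markers of other lineages were summed per cell. At least 3 UMIs of the markers of some other lineage were found in 44 of 103 fresh (42.7%) and 68 of 211 cryopreserved cells (32.2%), against 46.0% and 42.6% of the deeper other fibroblasts. The blood endothelial list passed in 21 cells of each library (20.4% and 9.95%, against 10.2% and 6.01% of the other fibroblasts), and this was PECAM1, an adhesion molecule of endothelial and blood cells (chromosome 12, 14667643 to 14723296 in the RefSeq annotation of Sscrofa11.1, as for all positions given here), with 248 and 227 UMIs. The other markers of that list were near 0, with 0 and 3 UMIs of CDH5, 1 and 2 of VWF, 0 and 6 of PLVAP, and 1 and 1 of TEK. In scaled counts per 1000000 UMIs (CPM), PECAM1 was at 246 and 132 in marker-low cells, 95.3 and 60.7 in other fibroblasts, and 211 and 136 in cells outside the fibroblasts. The mural list passed in 10 and 24 cells, through NOTCH3 (47 and 73 UMIs) and CSPG4 (31 and 83), while RGS5, a pericyte gene, had 2 and 8. It passed more often in the other fibroblasts, at 19.6% and 16.4%. The erythroid list passed in 13 and 18 cells and consisted of the haemoglobin gene HBB, with 109 and 193 UMIs, while AHSP, HBM and ALAS2 were at 0. FABP4 led the adipocyte list with 20 and 75 UMIs, and KRT10 the keratinocyte list with 46 and 59. The keratinocyte list passed in 5 fresh and 2 cryopreserved cells (4.85% and 0.948%, against 1.73% and 1.86% of the other fibroblasts). The lymphatic, Schwann, melanocyte and muscle lists passed in 0 of 103 and 0 of 211 cells, with exact upper bounds of 3.52% and 1.73%. The counts of called genes below are also given without the cells that held 3 or more such UMIs.

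The median share of mitochondrial UMIs was 3.62% in fresh and 2.78% in cryopreserved marker-low cells, against 2.51% and 2.12% in the other fibroblasts. Scrublet, which looks for doublets, called 0 of the fresh and 2 of the cryopreserved marker-low cells. It called 3 and 38 of all filtered cells, so it found too few to be informative here. Doublets had been gated out by scatter where cells were sorted.

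In the profile summed over cells, COL1A1, COL3A1 and COL1A2 held the most UMIs over both libraries, followed by ENSSSCG00000048856, which has no symbol. COL1A1 (chromosome 12, 26379087 to 26397180) had 18302 CPM in fresh and 21988 CPM in cryopreserved marker-low cells, against 60564 and 68856 in the other fibroblasts. COL1A2 had 10946 and 13251 CPM and COL3A1 11653 and 14344. These 3 genes chose all fibroblasts by the same limit, and the cause of their lower level in the marker-low cells was not tested. COL1A1 was also low, at 15425 and 16909 CPM, in the cells past the limit for MYOC, FGF10 and TMEFF2. Other abundant transcripts were COX2 and ATP6 of the mitochondrial genome, the galectin LGALS1, the calcium-binding S100A6, the lipid carrier APOE, and SPARC, a matrix glycoprotein. SPARC had 4204 and 4761 CPM, against 11814 and 12639 in the other fibroblasts.

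The marker-low cells were set beside the other 1941 fibroblasts as a description, because the rule used the same contrast. Of 8518 genes with at least 200 UMIs over all fibroblasts, 42 (0.493%) were at least 2-fold higher in both libraries and 129 (1.51%) at least 2-fold lower. This split depended on the scaling and on other settings. Without the cells holding other-lineage UMIs 42 were higher and 134 lower. There were 21 higher and 223 lower without the cell with most UMIs of each gene, and 111 and 51 with each cell weighted alike. Without sub-cluster 3, the one with the highest PTX3 level, described below, there were 81 and 235. Scaling to total UMIs gave 116 higher and 65 lower, and moved the median gene from -0.17 and -0.13 (log2, fresh and cryopreserved) to 0.16 and 0.18. Values below use TMM factors without centring, so a ratio is to be read against the medians of -0.17 and -0.13.

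Genes were ranked by the library ratio nearer 0. Among the genes with a symbol and with no cell holding over 10% of their fibroblast UMIs, the one that led those higher was clusterin (CLU, an extracellular chaperone, chromosome 14, 11336585 to 11352569). It had 159 CPM in fresh and 181 CPM in cryopreserved marker-low cells, against 53.5 and 41.2 in the other fibroblasts, with log2 ratios of 1.57 (1.31 to 1.82) and 2.13 (1.93 to 2.34). WIPF3 had a higher ratio in the fresh library, at 2.97, and 1.33 in the cryopreserved library. CCL19, a chemokine that attracts lymphocytes and dendritic cells through CCR7 (chromosome 10, 32110366 to 32112529), had 530 and 487 CPM against 195 and 143, log2 ratios of 1.44 and 1.77. A single cell held 15.8% of the CCL19 UMIs of the marker-low cells. The basement membrane collagen COL18A1 had 71.5 and 131 CPM against 28.4 and 33.4. The gap was smaller to the marked group with the highest level. COL18A1 was at 57.3 and 82.5 CPM in the cells past the limit for MYOC, FGF10 and TMEFF2, where CLU was at 103 and 56.9 and CCN3 at 86.6 and 82.1 (121 and 129 in the marker-low cells), and CCL19 was at 359 and 263 CPM in those past the limit for NT5E, SPON1 and CPZ. The transcription factor TBX18 and the matricellular protein CCN3 had log2 ratios of 1.56 and 1.33, and of 1.52 and 1.33. PERP, a desmosome-associated protein, had 14 and 52 UMIs, and log2 ratios of 1.49 and 2.01. It was at 1274 and 1520 CPM in the cells outside the fibroblasts, and the part of RNA from those cells was not tested. COCH, the matrix protein cochlin, had log2 ratios of 2.68 and 3.36, but 1 cell held 26.2% of its UMIs in the marker-low cells. Insulin-like growth factor binding protein IGFBP7 had 1850 and 1826 CPM against 805 and 900.

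Among the genes lower in both libraries were the subset genes of the rule. The others included WIF1, a secreted Wnt inhibitor, with 7.95 and 12.8 CPM against 115 and 92.3, log2 ratios of -3.85 (-5.07 to -2.87) and -2.85 (-3.53 to -2.24). The keratan sulphate proteoglycan osteomodulin (OMD) had 45.7 and 49.0 CPM against 225 and 199, log2 ratios of -2.30 and -2.03. SEMA3B, a secreted semaphorin, and the potassium channel subunit KCND2 had log2 ratios between -2.06 and -2.73. LAMA3, a laminin chain, had 11.9 and 12.8 CPM against 56.7 and 49.6. Among the fibroblast groups, WIF1 was highest in the cells past the limit for NT5E, SPON1 and CPZ, and OMD, SEMA3B, KCND2 and LAMA3 in those past the limit for CTHRC1. In the cells past the limit for MYOC, FGF10 and TMEFF2, WIF1 was lower than in the marker-low cells, at 3.58 and 1.71 CPM.

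**Figure D2:**
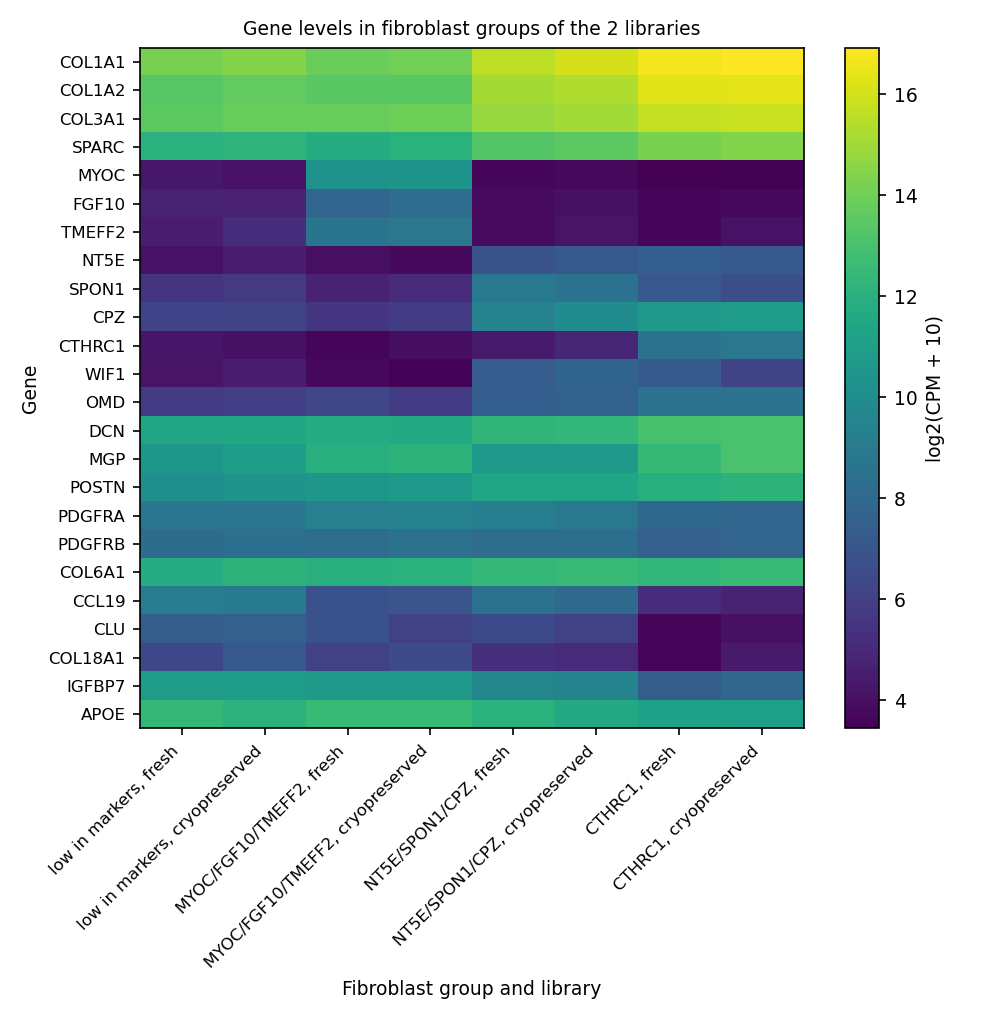
Gene levels as log2(CPM + 10) in marker-low fibroblasts and in the fibroblasts past the limit for MYOC, FGF10 and TMEFF2, for NT5E, SPON1 and CPZ, or for CTHRC1, in each library. Within each library, CCL19, CLU and COL18A1 are brightest in the marker-low column, with 530, 159 and 71.5 CPM in the fresh library. COL18A1 is at 82.5 CPM in the cryopreserved MYOC, FGF10 and TMEFF2 column, above the fresh marker-low column. The collagen levels of the marker-low columns are close to those of the MYOC, FGF10 and TMEFF2 columns.

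The gene lists were counted against 1.51% of all 8518 genes called lower, a share that was 0.763% with scaling to total UMIs. The share of all genes called higher was 0.493%, and 116 of the 8518 were called higher with total UMIs. Of 23 tested collagen-processing genes, 4 were called lower in both libraries and 0 higher, with medians of -0.57 (fresh) and -0.52 (cryopreserved) against -0.17 and -0.13 over all genes. They were PCOLCE, the procollagen C-proteinase enhancer (-1.09 and -1.08), the collagen crosslinker LOX (-1.12 and -1.23), the prolyl hydroxylase subunit P4HA2 (-1.74 and -1.26) and the collagen chaperone FKBP10 (-1.30 and -1.21). With scaling to total UMIs 0 of the 23 were called. Of 11 proteoglycan genes 5 were called lower, including DCN with 2946 and 2848 CPM against 5930 and 5848. With total UMIs 2 of the 11 were, OMD and KERA, and DCN was not. Of 8 fibrillar collagens, 3 were called lower, which are the genes of the rule. Of 17 other collagens 2 were called higher and 0 lower, of 17 elastic fibre genes 1 was called lower (0 with total UMIs), and of 13 matrix proteases and inhibitors 0 were called. The reticular list had 2 of 4 genes lower, MGP (1522 and 2044 CPM against 3770 and 5026), an inhibitor of mineralisation, and ANGPTL1, of which ANGPTL1 alone was called with total UMIs. No gene of the 18 tested immediate early, 12 heat shock, 13 endoplasmic reticulum stress or 10 glucocorticoid genes was called in either direction, although the immediate early gene EGR2 was called higher with total UMIs. Of the 14 chemokine and cytokine genes 2 were called higher, CCL19 and CXCL14, and 2 lower (1 with total UMIs). The list as a whole was lower, with medians of -0.53 (fresh) and -0.59 (cryopreserved). In both libraries 8 of its genes were lower and 4 higher. CXCL14 had 101 fresh UMIs, 49 of them in 1 cell, and 188 cryopreserved UMIs, again with 49 in 1 cell. It was detected in 19.4% of the fresh marker-low cells and 19.3% of the other fresh fibroblasts. In the cryopreserved library these shares were 19.9% and 15.9%. Of the 9 genes of the IGF pathway 1 was called higher, IGFBP7.

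The marker-low cells were not uniform. Clustering without the 11 genes of the rule gave 6 sub-clusters (3 at a resolution of 0.3 and 9 at 1.0), each with cells of both libraries. Their leading genes describe them and carry no test. For each sub-cluster the nearest of the 3 marked fibroblast groups was taken as the one with the smallest median absolute log2 difference over 4045 genes.

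Sub-cluster 1, with 27 fresh and 54 cryopreserved cells, was led by ENSSSCG00000010893, which has no symbol (677 against 26.7 CPM in the other marker-low cells), and by CCL19, which was at 2063 CPM there and 107 CPM in the other marker-low cells. CCL19 was detected in 25 of 27 fresh and 48 of 54 cryopreserved cells of it, against 162 of 810 and 188 of 1131 of the other fibroblasts. CYP7B1, an oxysterol hydroxylase, ENPP1, which makes pyrophosphate, and the calcineurin regulator RCAN2 followed, at 425, 521 and 233 CPM. The complement components CFD and C3 were at 3957 and 234 CPM, the adhesion molecule ICAM1 at 892 and APOE at 10827. NOTCH3 was detected in 16 and 28 of these cells. Its nearest group was that of NT5E, SPON1 and CPZ, with a median difference of 0.29, and 0.42 and 0.44 for the others.

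Sub-cluster 2, with 26 fresh and 43 cryopreserved cells, was led by ENSSSCG00000048207, again without a symbol (257 against 39.7 CPM), and by AKAP12, MGP and PECAM1. MGP was at 5650 CPM there and 1162 in the other marker-low cells. PECAM1 was at 506 CPM against 117, and was detected in 13 and 25 cells. It was not particular to this sub-cluster, being detected in 14 of 22 fresh and 14 of 38 cryopreserved cells of sub-cluster 4. The blood endothelial list summed to 529 CPM here and 490 CPM in sub-cluster 4. The immediate early genes EGR1 and FOS were at 1023 and 6107 CPM. Its nearest group was again that of NT5E, SPON1 and CPZ, by a smaller margin (0.32 against 0.36 and 0.40).

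Sub-cluster 3 held 8 fresh and 58 cryopreserved cells, which is 7.77% of the fresh (3.41 to 14.7%) and 27.5% of the cryopreserved marker-low cells (21.6 to 34.0%). It was led by DGKI, a diacylglycerol kinase, LIF, a cytokine of the IL-6 family, FAM20A and NOL11. LIF was at 207 CPM there and 9.97 in the rest, and was detected in 1 of 8 fresh and 28 of 58 cryopreserved cells. By library LIF was at 26.2 and 241 CPM, against 32.2 and 41.5 in the other fibroblasts, so it was not higher in the fresh library. NOL11 was at 1361 and 1074 CPM against 563 and 548 in the other fibroblasts, and FAM20A at 262 and 196 against 50.5 and 62.9. DGKI was at 227 and 182.5 CPM against 6.31 and 10.4, and came from 1 fresh and 10 cryopreserved cells of the sub-cluster. PTX3, a secreted pattern recognition molecule, was at 1089 CPM against 148. By library it was at 663 and 1168 CPM, against 406 and 471 in the other fibroblasts. Of the 840 cryopreserved PTX3 UMIs of all marker-low cells, 348 were in a single cell. In the fresh cells of the sub-cluster, 1 cell held 59 of the 76 PTX3 UMIs. TIMP1, an inhibitor of metalloproteinases, was at 6181 CPM, and IGFBP5 and IGFBP6 at 2858 and 2583. FOS was lowest here among the 6 sub-clusters, at 331 CPM. These were the deepest cells, with medians of 14434.5 and 11398.5 UMIs, and the lowest in mitochondrial UMIs, at 1.55% and 1.39%. Their nearest group was that of MYOC, FGF10 and TMEFF2, with a median difference of 0.27 against 0.41 and 0.39, and in each library alone it was the same group.

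Sub-cluster 4, with 22 fresh and 38 cryopreserved cells, was led by ENSSSCG00000014242, without a symbol (375 against 16.1 CPM), and by PREX2, HMCN1, the clotting factor subunit F13A1 and the glycogen branching enzyme GBE1. GBE1 was at 1205 CPM there against 181. Its cells had medians of 7084.5 (fresh) and 3221 UMIs (cryopreserved), and were rich in mitochondrial UMIs, at 5.84% and 6.77%. WIF1, which was scarce in the marker-low cells, was detected in 5 of 22 and 10 of 38 of these cells, against 0 of 27 and 0 of 54 of sub-cluster 1. Its nearest group was that of NT5E, SPON1 and CPZ (0.41, against 0.61 and 0.53).

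Sub-cluster 5, with 10 fresh and 11 cryopreserved cells, was led by COCH, CXCL14, CNTN1, PI16 and CRABP1. COCH had 654 UMIs there and 3 in all other marker-low cells, and was detected in 7 of 10 and 5 of 11 cells. CXCL14 was at 1037 CPM, the retinoic acid binder CRABP1 at 2118 and APOE at 18338. Of the markers listed for dermal papilla and sheath, COCH and CRABP1 held most of the UMIs here, so the sub-cluster is called by its genes. Sub-cluster 6, with 10 fresh and 7 cryopreserved cells, was led by genes without a symbol and by PRR16 among others. PRR16 was at 4426 CPM there, and the medians of the sub-cluster were 3835 and 4240 UMIs. It was far from all 3 groups, with 0.76 to the nearest, that of CTHRC1.

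**Figure D3:**
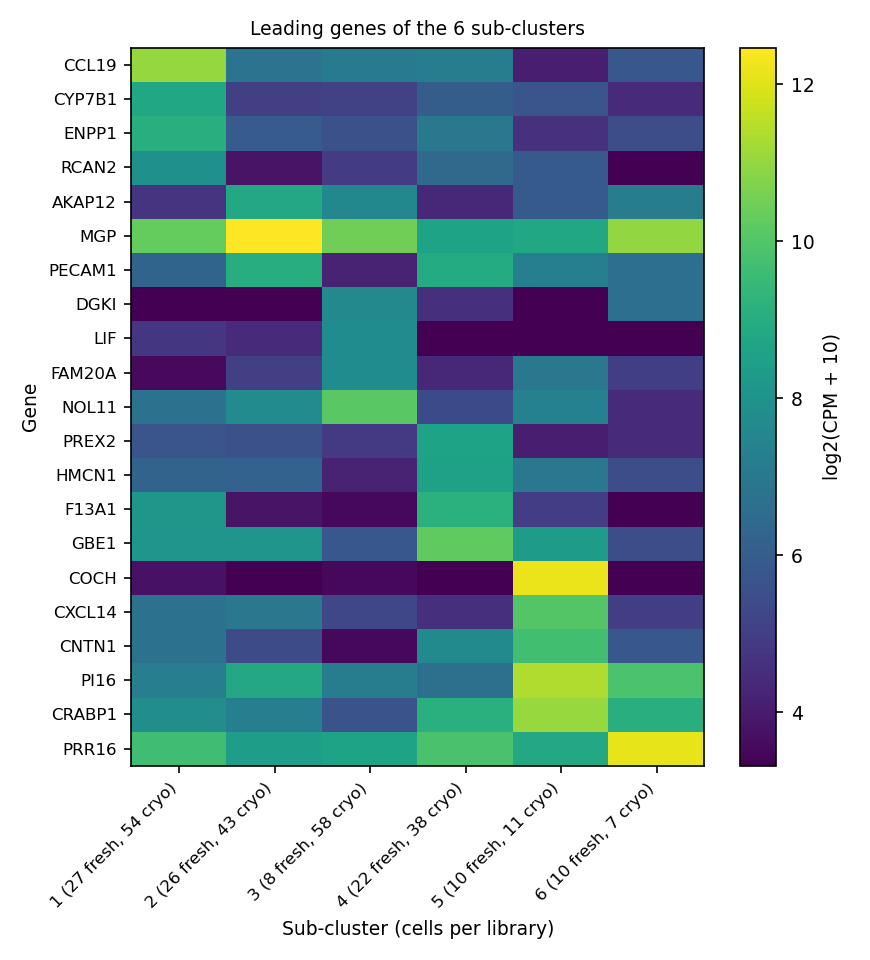
Level of the leading named genes, as log2(CPM + 10), in the 6 sub-clusters of marker-low fibroblasts, with the number of cells per library in the labels. CCL19 is brightest in sub-cluster 1, MGP in 2, LIF and DGKI in 3, GBE1 in 4, COCH in 5 and PRR16 in 6.

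Between the libraries, the marker-low cells were compared over 2264 genes with at least 200 UMIs. Ratios are given as cryopreserved over fresh. In all, 43 genes (1.9%) passed a 2-fold difference, with 26 (1.15%) higher in cryopreserved cells and 17 (0.751%) lower. The direction of these calls depended on the setting. There were 43 higher and 6 lower genes without the cell with most UMIs of each gene, 21 and 4 without the maxima on genes and UMIs per cell, 29 and 11 without cells holding other-lineage UMIs, and 33 and 36 with limits as shares of a cell's UMIs. The median absolute log2 ratio was 0.27 (0.26 to 0.28). Without sub-cluster 3, which was unequal in size, 7 of 1585 genes passed and the median absolute ratio was 0.20, and with both libraries given the same sub-cluster shares 28 genes passed.

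ARPC1B, a subunit of the actin-nucleating Arp2/3 complex (chromosome 3, 6329737 to 6342641), had 60.6 CPM fresh and 201 CPM cryopreserved, a log2 ratio of 1.73 (1.33 to 2.14). It was detected in 40 of 103 and 131 of 211 cells. Without sub-cluster 3 the ratio was 1.31, with the same sub-cluster shares 1.63, and in the other fibroblasts 1.59, which is of much the same size. The small protein SERF2 had 1.22 in the marker-low cells, 0.99 without sub-cluster 3 and 1.28 in the others.

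A further set of genes was over 2-fold higher in the cryopreserved library, but within 2-fold of the fresh library once sub-cluster 3 was left out. That sub-cluster was chosen for its PTX3 level, and PTX3, ITGB3 and ACKR3 were among its leading genes by fold. It was made from the same counts and held few fresh cells, so a fall without it is a description and no test. ACKR3, a scavenger receptor for CXCL12 (chromosome 15, 136370457 to 136382559), had 91.4 and 289 CPM, a log2 ratio of 1.66 that was 0.23 without the sub-cluster. PLAU, the urokinase plasminogen activator (chromosome 14, 76629313 to 76635173), had 292 and 880 CPM, a ratio of 1.59 (1.41 to 1.78) and 0.51 without it. The integrin subunit ITGB3 had 61.6 and 163 CPM, a ratio of 1.40 and 0.03 without it. TIMP1 (chromosome X, 42103251 to 42106289) had 1493 and 3430 CPM, a ratio of 1.20 (1.12 to 1.28) and 0.58 without it. TNFAIP3, the A20 inhibitor of NF-kB signalling (chromosome 1, 26474158 to 26489771), had 90.4 and 259 CPM, a ratio of 1.52 and 0.91 without it. PTX3 had 190 and 490 CPM, a ratio of 1.37 and -0.15 without it, and a single cell held 33.8% of its UMIs. With both libraries given the same sub-cluster shares, ACKR3 (1.21) and PLAU (1.19) stayed past 2-fold, while ITGB3 was at 0.76, TIMP1 at 0.65, TNFAIP3 at 0.87 and PTX3 at 0.57. In the other fibroblasts these genes had ratios of 0.82, 0.99, 0.24, 0.42, 0.38 and 0.22 in the order first given. Within sub-cluster 3, ACKR3 had 183 CPM fresh and 645 CPM cryopreserved, PLAU 541 and 1818.5, and ITGB3 174 and 372. TIMP1 had 4073 and 6575 CPM there, TNFAIP3 288 and 513, and PTX3 663 and 1168.

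The upstream sequences of PTX3 and PLAU are shown as examples of windows that hold kappa-B matches. They are the 250 bases before the RefSeq gene start in Sscrofa11.1, on the strand of the gene, at chr13:97273344-97273593 (plus strand) for PTX3 and chr14:76629063-76629312 (plus strand) for PLAU. Capitals mark matches to the kappa-B consensus on either strand. The AP-1 letters TGANTCA were also searched.
PTX3: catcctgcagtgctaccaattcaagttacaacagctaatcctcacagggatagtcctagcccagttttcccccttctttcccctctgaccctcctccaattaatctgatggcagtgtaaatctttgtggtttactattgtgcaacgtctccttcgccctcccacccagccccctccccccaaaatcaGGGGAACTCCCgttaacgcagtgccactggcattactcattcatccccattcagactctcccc
PLAU: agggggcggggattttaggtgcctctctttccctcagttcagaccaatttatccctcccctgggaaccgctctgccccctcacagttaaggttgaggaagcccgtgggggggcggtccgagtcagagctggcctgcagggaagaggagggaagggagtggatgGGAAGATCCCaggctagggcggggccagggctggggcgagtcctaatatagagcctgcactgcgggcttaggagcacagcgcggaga
ACKR3 also held a kappa-B match, whereas TIMP1 and CCL19 held neither motif, and none of these 5 windows held an AP-1 match. Of all 19569 windows of protein-coding genes, 2738 held a kappa-B match and 5.27% an AP-1 match. PTX3 held overlapping kappa-B matches. A match describes the letters and is no evidence of binding.

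The metallothionein MT1X, which binds zinc and copper, had 14 fresh and 187 cryopreserved UMIs (log2 2.97, 2.19 to 3.87). It was detected in 10 of 103 fresh and 38 of 211 cryopreserved cells, 1 of which held 15.9% of the UMIs. Without sub-cluster 3 the ratio was 2.85, and in the other fibroblasts 0.96. It was at 2150 and 4604 CPM in the cells outside the fibroblasts, and the part of RNA from those cells was not tested. PDLIM4, a cytoskeletal adaptor, and the cadherin CDH13 had ratios of 1.46 and 1.19. Without sub-cluster 3 these were 1.13 and 0.44, with the same sub-cluster shares 1.19 and 0.83, and in the other fibroblasts 0.85 and 0.01. CDH13 turned to -0.27 without the maxima on genes and UMIs per cell.

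Of the 11 tested mitochondrial protein genes, 9 lay below 0 (median -0.33, -0.12 without sub-cluster 3 and 0.05 with the same sub-cluster shares) and 2 were called lower. Over all 2264 genes, 1197 lay below 0 and 0.751% were called lower. ND3, a subunit of respiratory complex I, had 787 CPM fresh and 120 CPM cryopreserved, a log2 ratio of -2.72 (-2.95 to -2.50), and was detected in 98 of 103 and 120 of 211 cells. COX3, of complex IV, had 5879 and 2616 CPM, a ratio of -1.17, which was within 2-fold without sub-cluster 3 (-0.94) and with the same sub-cluster shares (-0.85). Both were lower to a like degree in the other fibroblasts, at -2.47 and -0.94. The genes above 0 were ND1 (0.17) and ND4L (0.82). The ribosomal protein gene RPS20 had 1030 and 514 CPM, a ratio between -1.13 and -0.87 by its interval, and -1.26 in the other fibroblasts. It was -0.99 without sub-cluster 3 and -1.075 with the same sub-cluster shares. Of the 60 tested cytosolic ribosomal protein genes 41 lay above 0 (median 0.18, 0.01 without sub-cluster 3), and RPS20 was the 1 called. The tubulin kinase TTBK2, the condensin subunit SMC4 and BRWD3 had ratios of -1.32, -1.01 and -1.01. All 3 were within 2-fold without sub-cluster 3 (-0.94, -0.62 and -0.78) and with the same sub-cluster shares (-0.93, -0.74 and -0.70).

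**Figure D4:**
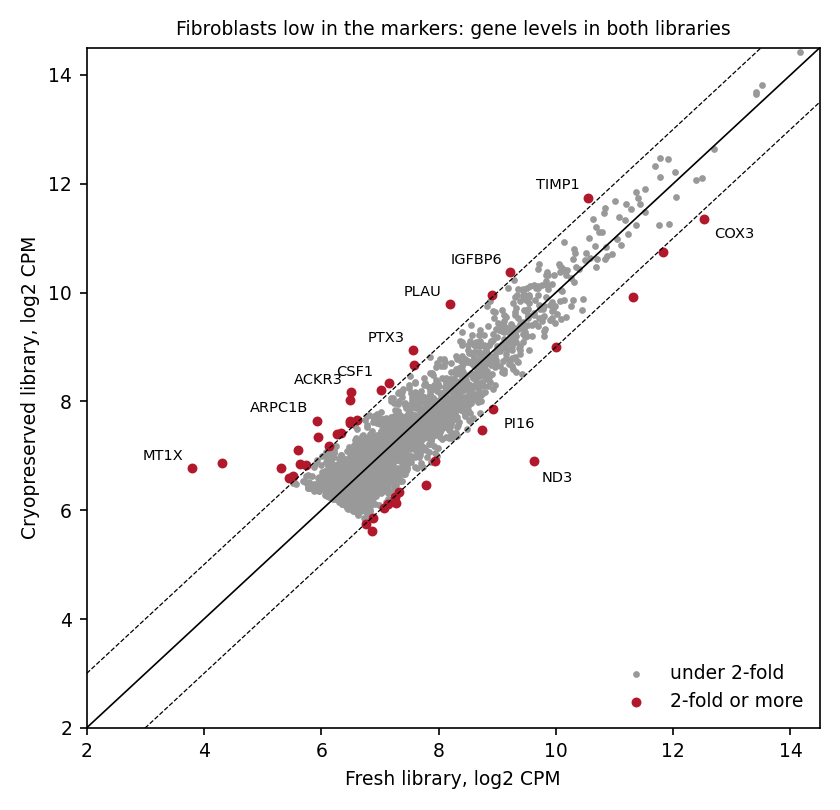
Level of each tested gene in marker-low fibroblasts, as log2 CPM in the fresh (x axis) and cryopreserved library (y axis), with the line of equality and dashed lines at a 2-fold difference. The 43 genes past 2-fold are in red, with ND3 and COX3 below the line and MT1X, ARPC1B and PLAU above it.

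**Figure D5:**
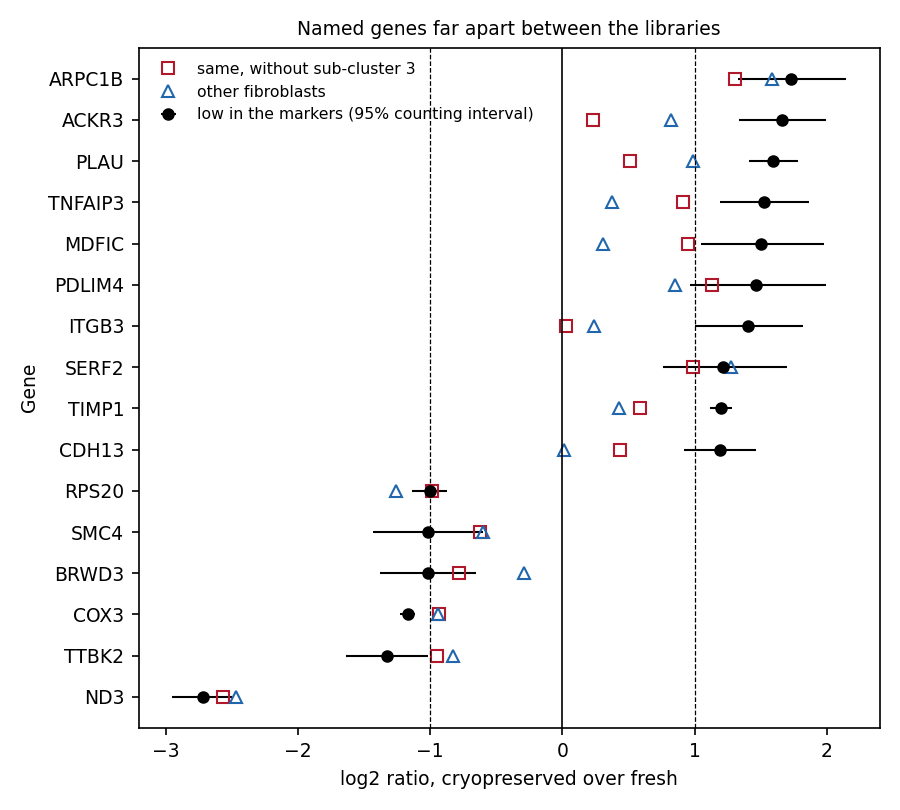
Log2 ratio, cryopreserved over fresh, of named genes far apart in marker-low fibroblasts (circles with 95% counting intervals), in the same cells without sub-cluster 3 (squares) and in the other fibroblasts (triangles). ACKR3, PLAU and ITGB3 move from above 1 to between 0.03 and 0.51 without the sub-cluster, while ARPC1B and ND3 stay beyond 1 in size. ACKR3 and ITGB3 are among the leading genes of that sub-cluster.

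By gene group, called genes were few. The 9 tested endoplasmic reticulum stress genes all lay above 0, with a median of 0.47 (0.30 without sub-cluster 3) against -0.03 over all genes, and none was called. The largest were DDIT4, an mTOR inhibitor (107 and 203 CPM), and the chaperones CALR (216 and 344) and HSPA5 (231 and 367). The rise was not particular to the marker-low cells. Summed over the list, they had 2139 CPM fresh and 2908 CPM cryopreserved. The other fibroblasts had 2718 and 3519, and the cells outside the fibroblasts 2338 and 3024. The 9 tested glucocorticoid response genes all lay below 0, with a median of -0.25 (-0.13 without sub-cluster 3), and none was called. Their list summed to 2271 and 1798 CPM in the marker-low cells. It was also lower in the cryopreserved library in the other fibroblasts (2498 and 2128) and outside the fibroblasts (1920.5 and 1691). The chaperone list of 11 heat shock genes had a median of -0.11 (0.00 without sub-cluster 3), the 15 immediate early genes 0.00 (0.09 without it and 0.21 with the same sub-cluster shares), and neither had a called gene. Of the 11 tested matrix proteases and inhibitors 9 lay above 0, with a median of 0.47 (0.14 without sub-cluster 3), and TIMP1 was called higher. The cold-shock protein RBM3 had 135 and 205 CPM, a ratio of 0.60. It was also higher in the cryopreserved library in the other fibroblasts (150 and 232 CPM) and in the cells outside the fibroblasts (237 and 340). The 6 tested fibrillar collagens lay above 0 (median 0.27), and the median was -0.10 without sub-cluster 3 and 0.26 with the same sub-cluster shares. Of the 9 chemokine and cytokine genes 2 were called higher, ACKR3 (0.23 without sub-cluster 3, as above) and the macrophage growth factor CSF1 (130 and 294 CPM, also 0.23 without it), beside 1.15% called higher and 0.751% called lower over all genes. Of the 9 adventitial genes 1 was called higher, IGFBP6 (598 and 1333 CPM, 0.02 without sub-cluster 3), and 1 lower, PI16 (490 and 232 CPM, -0.79 without it). For CSF1, IGFBP6 and PI16 a single cell held 11.5%, 10.04% and 10.1% of the UMIs.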

How the data were processed

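The authors mapped reads with Cell Ranger 4.0.0 (STAR 2.5.1b) to Sscrofa11.1 with the Ensembl annotation and deposited, per library, the UMI counts of each gene in each barcode. These counts are not normalized. Barcodes were limited to 4500 genes, 30000 UMIs and 10% mitochondrial UMIs, the limits of the study. The mitochondrial share was taken over the 13 mitochondrial protein genes, a choice made here. From the files, 772 IDs without a symbol were named with the reference table. Counts were summed over cells per library and fibroblast group and scaled to CPM with TMM factors (edgeR 4.0.16). Genes with at least 200 UMIs were called at a log2 ratio of 1 in size, with a group at 0 set to 3 counts. Sub-clusters were made with scanpy 1.11.5 (Leiden, resolution 0.5, 30 principal components). Their CPM were scaled to total UMIs, as were those of cells outside the fibroblasts. The 10 highest and 10 lowest ratios between libraries, the 12 highest and 12 lowest against other fibroblasts, and the most abundant list genes were named, where no cell held over 10% of the UMIs of the marker-low cells (between libraries) or of all fibroblasts. The calculation was tested on simulated counts. The members and gene lists were chosen with earlier results of these data known. Alternatives included DESeq2 1.42.0 size factors, other filters and other limits. Some items that these rules would name are not reported here.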

Additional observations from a re-analysis of the deposited data

Results flagged for a closer look

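Among barcodes above the limit of 10% mitochondrial UMIs, which entered the values above only where that limit was dropped, 75 fresh and 59 cryopreserved barcodes met the rest of the rule. They were 54.3% (45.7 to 62.8%) of the 138 fresh and 65.6% (54.8 to 75.3%) of the 90 cryopreserved fibroblasts above that limit. They were listed because they carry the marker-low profile outside the cells of the main comparisons.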

How the results depend on the processing

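No paired analysis was possible because there was 1 library per condition. The cause of the shifts below was not tested. The difference in the marker-low share was -1.52 points after thinning to 3000 UMIs, 0.835 with share limits, 1.17 for cells with no marker UMI and 1.92 (-1.16 to 4.93) without the mitochondrial limit. It was 4.53 (1.95 to 6.98) with a collagen limit of 5% and 5.57 (3.03 to 8.08) without the gene and UMI maxima. The ratio of median UMIs between libraries was 1.11 without the mitochondrial limit, and that of marker-low over other fibroblasts was 0.742 (fresh) and 0.798 (cryopreserved) with share limits and 0.344 and 0.467 for cells with no marker UMI. Cells with other-lineage UMIs were 66.0% and 53.6% at 2 UMIs, and 16.5% and 12.8% at 5. The number of sub-clusters was 3 at resolution 0.3. The count of genes 2-fold apart between libraries was 258 with a filter of 50 UMIs, 9 with 1000, 2158 with no filter, 69 with share limits and 25 without the gene and UMI maxima. The choices made after seeing the data gave 7 without sub-cluster 3, 28 with equal sub-cluster shares and 69 for cells with at least 5000 UMIs. The median absolute ratio, in the same kinds of setting, was 0.304 with 50 UMIs, 0.447 with no filter, 0.304 with share limits, 0.219 without maxima, 0.302 without cells holding other-lineage UMIs, 0.245 with cells weighted alike, 0.203 without sub-cluster 3, 0.247 with equal shares and 0.316 for deep cells. Genes higher and lower than in other fibroblasts were 116 and 65 with total UMIs, 127 and 216 with 50 UMIs, 16 and 72 with 1000, 431 and 213 with no filter, 21 and 223 without the top cell of each gene, 81 and 235 without sub-cluster 3, and 111 and 51 with cells weighted alike, and 70 were higher without the mitochondrial limit. CDH13 turned to -0.27 between libraries without the maxima. Against other fibroblasts, ENSSSCG00000044382 turned to -0.31 (fresh, share limits), ENSSSCG00000048060 to -0.44 (cryopreserved, 5000 UMIs) and WIPF3 to -1.33 (fresh, 5000 UMIs). Of the alternatives for named genes, 69 moved, 1 reversed and 210 stayed within their spread between libraries, and 87, 3 and 486 did so against other fibroblasts.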

Other observations

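A few signalling genes are given by sub-cluster of the marker-low fibroblasts. They were chosen after their values were seen, and they do not stand for their lists. Summed over the list, the Wnt genes (24 found) ran from 612 CPM in sub-cluster 1 to 1974 in sub-cluster 5, the TGF-beta and BMP genes (27) from 1711 in sub-cluster 6 to 5665 in sub-cluster 4, and the growth factor genes (23) from 1586 in sub-cluster 6 to 4135 in sub-cluster 3. The Wnt target AXIN2 was at 208 CPM in sub-cluster 1 and 281 in sub-cluster 4, and between 8.24 and 122 in the others. The BMP antagonist GREM1 was at 238 and 257 CPM in sub-clusters 1 and 4 and at 0 to 9.65 elsewhere. The Wnt modulator SFRP4 ran the other way, with 518 CPM in sub-cluster 3 and 1095 in sub-cluster 6 against 1.75 and 3.47 CPM in sub-clusters 1 and 4, although 1 cell held 15.5% of its UMIs. The receptor FGFR2 was at 596 CPM in sub-cluster 1, and DKK2, a secreted Wnt antagonist, at 627 CPM in sub-cluster 5. The sub-clusters were made from the same counts, so these levels are a description.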
